A study of Mus musculus with 6 samples.

Results

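The regions described here carried an E2A peak in at least 2 of 3 wild-type libraries and none in E12 knockout or E47 knockout cells, which lack a splice form of E2A. Wild-type peaks that overlapped by at least 1 bp were merged, which gave 26817 regions, of which 12322 were held by at least 2 wild-type lists (wt consensus regions). Of these 12322, 230 (1.87%, 95% Wilson interval 1.64 to 2.12) overlapped no peak of the E12 knockout and no peak of the E47 knockout. The regions were chosen by the peak lists themselves, so their number, their presence in the wild-type lists and their absence from the knockouts are a description and were not tested. Another 184 consensus regions were missing in the E12 knockout only and 571 in the E47 knockout only, and 11337 had a peak in both knockouts.

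E2A is the protein product of Tcf3, whose alternatively spliced forms E12 and E47 differ in the basic helix-loop-helix (bHLH) domain that contacts DNA. The proteins bind as dimers, with each other or with tissue-specific bHLH partners such as the proneural factors, to a short palindromic DNA element called the E-box (CANNTG), and Id proteins keep them off DNA. In the embryonic brain, E proteins and their partners are known for roles in neuronal differentiation and cell cycle exit, while Id proteins are known for keeping progenitors undifferentiated.

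In the study, chromatin bound by E2A was precipitated and sequenced (ChIP-seq) from proliferating neural stem cells of C57BL/6J mouse embryos at E12.5. The groups used here were wildtype (wt replicates 1, 2 and 3), E12 KO (E12KO, 1 library) and E47 KO (E47KO, 1 library), all grown in medium with 20 ng/ml of each of the mitogens EGF and FGF-2, and fixed with 1.5 mM EGS and then 1% formaldehyde. An input library of wildtype cells entered no comparison. By its name each knockout lacks 1 splice form and keeps the other, and the labels do not say how the alleles were made, how many embryos gave each library, or whether the wt replicates were separate cultures. With 1 library per knockout, the loss of a splice form and the quality of that library cannot be told apart.

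The wt replicate 1 list stood apart from the others. It was the shortest list, with 6814 peaks against 12772 for replicate 2, 24194 for replicate 3, 25229 for E12KO and 22176 for E47KO. The shortest wt replicate 1 peak was 280 bp wide, while the other 4 lists held 12 to 52 peaks under 150 bp. Only the wt replicate 1 table gives scores, and its deposited name carries another false discovery rate label than the others. Read depth is unknown. Without wt replicate 1, 89 regions held by both remaining wt lists were missing in both knockouts, or 0.808% of such regions.

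In 23 of the 230 regions, the peak that gave the annotation (replicate 3, or else replicate 2) covered the start site of the gene. Promoter sequences are shown for 5 of these, to let a reader see what DNA stood under peaks that no knockout list held. They are RefSeq windows of the GRCm38.p6 mouse build, from 250 bases before to 50 after the start, 5′ to 3′ on the strand of the gene, with every E-box CANNTG in capitals. The peaks are in the older mm9 build, so a window shows the promoter of the gene and not the exact bases under the peak. Windows were printed only for genes with 1 start in the table and with a transcript span in mm9 within 1% of the gene span in GRCm38.p6. Those criteria left 8 genes, of which 4 held an E-box, and these 4 are printed with Ank, the widest of the 23 regions.
Actr3 promoter, chr1:125435678-125435977, minus strand: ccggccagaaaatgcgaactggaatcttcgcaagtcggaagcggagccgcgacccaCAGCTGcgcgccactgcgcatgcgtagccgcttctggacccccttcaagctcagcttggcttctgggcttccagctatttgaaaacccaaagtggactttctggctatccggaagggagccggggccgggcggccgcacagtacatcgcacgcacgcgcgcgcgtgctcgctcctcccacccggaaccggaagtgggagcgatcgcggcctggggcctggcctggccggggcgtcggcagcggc
Cdk8 promoter, chr5:146231000-146231299, plus strand: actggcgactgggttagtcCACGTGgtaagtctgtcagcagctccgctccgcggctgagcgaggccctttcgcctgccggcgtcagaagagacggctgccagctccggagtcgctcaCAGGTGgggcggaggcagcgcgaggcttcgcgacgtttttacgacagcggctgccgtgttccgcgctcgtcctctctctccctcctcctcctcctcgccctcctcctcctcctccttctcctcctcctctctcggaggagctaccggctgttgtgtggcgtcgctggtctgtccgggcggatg
Scai promoter, chr2:39190681-39190980, minus strand: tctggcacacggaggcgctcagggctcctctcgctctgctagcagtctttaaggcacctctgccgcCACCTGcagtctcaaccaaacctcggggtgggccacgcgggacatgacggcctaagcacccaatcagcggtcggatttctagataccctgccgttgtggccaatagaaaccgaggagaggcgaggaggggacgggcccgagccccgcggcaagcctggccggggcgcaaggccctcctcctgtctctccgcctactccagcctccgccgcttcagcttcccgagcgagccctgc
Dpy19l3 promoter, chr7:35754405-35754704, minus strand: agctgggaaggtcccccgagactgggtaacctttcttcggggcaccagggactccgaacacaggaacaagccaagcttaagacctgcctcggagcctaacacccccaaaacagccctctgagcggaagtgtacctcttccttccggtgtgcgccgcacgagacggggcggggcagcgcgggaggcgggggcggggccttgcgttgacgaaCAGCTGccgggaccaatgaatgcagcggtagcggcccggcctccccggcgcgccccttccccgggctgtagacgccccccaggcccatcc
Ank promoter, chr15:27466427-27466726, plus strand: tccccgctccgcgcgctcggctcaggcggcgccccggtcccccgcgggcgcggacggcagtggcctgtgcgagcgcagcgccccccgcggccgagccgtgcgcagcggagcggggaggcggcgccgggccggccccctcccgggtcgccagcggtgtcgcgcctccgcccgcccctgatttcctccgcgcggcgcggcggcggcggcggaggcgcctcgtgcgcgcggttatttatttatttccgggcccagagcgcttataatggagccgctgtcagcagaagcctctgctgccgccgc

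The windows of Actr3, a subunit of the actin-nucleating Arp2/3 complex, and of Dpy19l3, a mannosyltransferase, each held the E-box CAGCTG. The window of Scai, which encodes a cofactor of actin-linked transcription, held CACCTG. That of Cdk8, a kinase of the Mediator complex, held CAGGTG and CACGTG. No CANNTG was found in the window of Ank, which encodes a pyrophosphate transporter. All 23 genes together matched 25 RefSeq windows of 19 genes. At least 1 CANNTG was found in 17 of the 25 (68.0%, 95% Wilson interval 48.4 to 82.8), and at least 1 of CAGCTG or CAGGTG or CACCTG, the types that E proteins are known to prefer, in 7 (28.0%, 14.3 to 47.6). Each motif set is its own reverse complement, so both strands were covered, and the 3 preferred types are also matches to CANNTG. Among 2051 windows of genes whose start was covered by a region with a peak in both knockouts, the shares were 64.3% and 32.2%, and among all 32851 windows of the table they were 72.3% and 32.9%. For regions missing in E12KO only the shares were 61.1% and 41.7%, and for those missing in E47KO only 57.4% and 27.0%. The intervals for the missing regions held all these comparison values. Some genes gave more than 1 window, and the intervals count such windows as if they were independent. Windows were matched by gene, so some may stand at starts that no peak covered. The median GC content was 66.7% for the 25 windows, 63.0% for the windows of regions with a peak in both knockouts and 52.7% for all windows. It was 62.2% for windows of regions missing in E12KO only and 63.7% for those missing in E47KO only. A match is a description of the letters and not a binding site.

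The 230 regions were spread unevenly over the wt lists that held them. Replicates 1 and 3 alone held 131 of them, replicates 2 and 3 alone 82, replicates 1 and 2 alone 10, and all 3 replicates 7. The share held by replicates 1 and 3 alone was 57.0%, against 7.49% of regions with a peak in both knockouts. It was also high in regions missing in E12KO only (41.3%) and in E47KO only (36.3%). As shares of the consensus regions with the same holders, 10 of 47 regions in replicates 1 and 2 only were missing in both knockouts (21.3%, 12 to 34.9), and 131 of 1263 in replicates 1 and 3 only (10.4%, 8.81 to 12.2). The share was 82 of 6784 for replicates 2 and 3 only (1.21%, 0.975 to 1.5) and 7 of 4228 for all 3 replicates (0.166%, 0.0802 to 0.341). Thus 223 of the 230 regions were also absent from 1 wt list. All 3 replicates held 3.04% of the 230, against 4228 of all 12322 consensus regions. They held 36.6% of regions with a peak in both knockouts. The share was also low in regions missing in E12KO only (5.43%) and in E47KO only (10.5%), so it is not particular to the 230. The intervals cover counting error only, and regions of 1 list are not replicates.

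**Figure D1:**
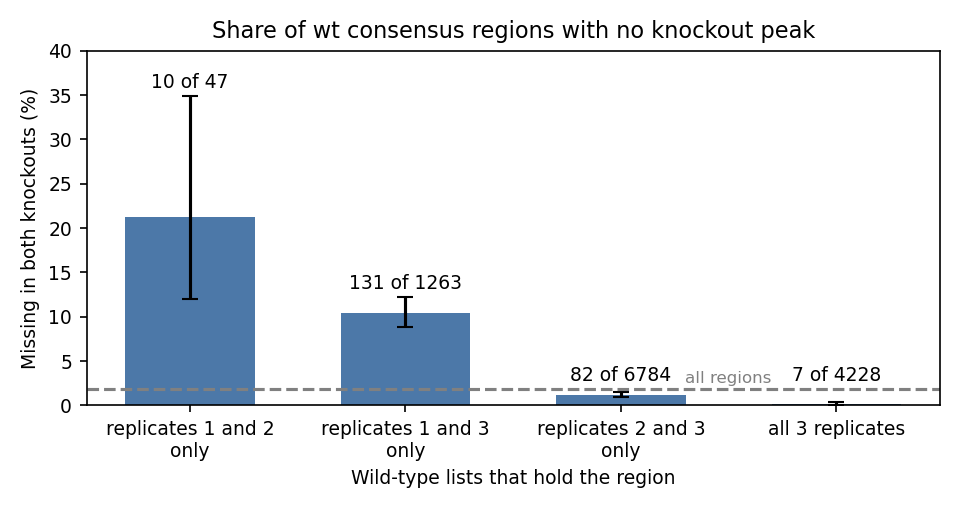
Share of wt consensus regions missing in both knockouts (vertical axis, %), by the wild-type lists that hold the region (horizontal axis). Bars are shares with 95% Wilson intervals, the numbers printed over them count regions, and the dashed line marks the 1.87% of all consensus regions. The bar for all 3 replicates, at 0.166%, is the lowest.

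The absence of these regions from the knockouts can be read beside absence from a wild-type list that was held out. Of 5491 regions held by replicates 1 and 3, 23.0% had no peak in replicate 2, 4.08% none in E12KO and 7.38% none in E47KO. Missing in both knockouts were 138 (2.51%), and 131 of these 138 (94.9%) were also missing in replicate 2. Of 11012 regions held by replicates 2 and 3, 61.6% had no peak in replicate 1, and 89 (0.808%) were missing in both knockouts, 82 of them (92.1%) also missing in replicate 1. Of 4275 regions held by replicates 1 and 2, 1.10% had no peak in replicate 3, 0.678% none in E12KO and 2.06% none in E47KO. Only 17 of these were missing in both knockouts, and 10 of the 17 (58.8%) were missing in replicate 3. For each pair, a larger share of regions was missing from the remaining wt list than from E12KO. For replicates 1 and 2 the E47KO share was above that of the remaining wt list. Every held-out list was shorter than the E12KO list of 25229 peaks: 6814 for replicate 1, 12772 for replicate 2 and 24194 for replicate 3. A list of 6814 peaks cannot cover all 11012 regions held by replicates 2 and 3. How far list length set these shares was not tested, so their order gives no measure of the knockouts.

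The holders also differed from those of regions with a peak in both knockouts. Of the 148 missing regions in the replicate 1 list, 17 were in the replicate 2 list (11.5%, 7.30 to 17.6), against 83.1% of 5024 such regions with a peak in both knockouts. The same share was 13.6% of 88 regions missing in E12KO only and 25.5% of 278 missing in E47KO only. Of the 220 missing regions in the replicate 3 list, 40.5% were in replicate 2 and 62.7% in replicate 1. For regions with a peak in both knockouts these shares were 92.5% and 44.2%.

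The 7 regions held by all 3 wild-type lists are the best replicated of the set. The region annotated to Arhgap5, a GTPase-activating protein (chr12:53530634-53531294, mm9), was intergenic, 73665 bp upstream of the start. Its peaks were 646, 308 and 451 bp wide in wt replicates 1, 2 and 3, and the nearest knockout peaks were 16190 bp (E12KO) and 16182 bp (E47KO) away. The region near Hopx, a small homeodomain protein (chr5:77585947-77586493), lay 41909 bp upstream of the start in intergenic DNA. Its peaks were 452, 427 and 378 bp wide, with knockout peaks 11828 and 18681 bp away. These 2 regions had the highest fold enrichment of the 7 in replicate 1, at 11.0-fold and 10.7-fold over the background of the peak caller. Fold enrichment and −log10 q here and below are the authors' values for the replicate 1 peak.

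The region annotated to Sycp2, a meiotic chromosome axis gene, lay in intron 8 of Phactr3, a regulator of protein phosphatase 1 (chr2:178041901-178042378). Its peaks were 408, 354 and 238 bp wide, and it was the farthest of the 7 from a knockout peak, at 106497 bp (E12KO) and 286192 bp (E47KO). The region at the start of Lcorl, a transcriptional corepressor-like gene (chr5:46247593-46248199), was the only promoter among the 7. Its peaks were 414, 237 and 474 bp wide, its fold enrichment was 5.91, and knockout peaks stood 350 and 517 bp away. The remaining 3 were annotated to Lrrc8d, a volume-regulated anion channel subunit (chr5:106077770-106078228), Med13l, a Mediator subunit (chr5:119126558-119127023), and Lingo1, a part of the Nogo receptor complex (chr9:56586541-56587132). The Med13l region was in intron 3 of a transcript of that gene, 47069 bp upstream of the start of the transcript it was annotated to, while the other two were intergenic, 50829 bp (Lrrc8d) and 53481 bp (Lingo1) upstream. Their fold enrichments were 8.19 (Lrrc8d), 7.58 (Med13l) and 5.54 (Lingo1). Chromosome 5 held 4 of the 7 regions, and 28 of its 719 consensus regions were missing in both knockouts (3.89%, 2.71 to 5.57), the highest share of any chromosome. The lowest was 6 of 596 on chromosome 12 (1.01%), and the share over all consensus regions was 1.87%. These 2 chromosomes were picked as the extremes, which the interval does not allow for, and no difference between chromosomes was tested.

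Peak scores in wt replicate 1 were lower for the missing regions than for regions with a peak in both knockouts, and close to those of regions missing in 1 knockout. The median −log10 q was 10.5 (range 3.27 to 377, n = 148), against 15.8 for 5024 regions with a peak in both knockouts, 10.98 for regions missing in E12KO only and 10.4 for those missing in E47KO only. The median fold enrichment was 6.76, against 8.04 for regions with a peak in both knockouts, 6.78 for those missing in E12KO only and 6.60 for those missing in E47KO only. The median pileup, the read coverage at the summit, was 20.0, against 27.0, 20.5 and 21.0 in the same order. Of the consensus regions with a −log10 q of at least 5 in replicate 1, 139 of 5312 were missing in both knockouts (2.62%). At a −log10 q of at least 20 this was 25 of 2096 (1.19%), and at 100 or more 3 of 244 (1.23%).

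A few missing regions were far stronger than the rest. The strongest covered the start of Bcl2l2, which encodes the anti-apoptotic protein BCL-W (chr14:55501921-55502638). It ranked 11 of the 6814 replicate 1 peaks by −log10 q, at 377 and 67.1-fold enrichment. The region was 718 bp wide in replicate 1 and 438 bp in replicate 3, and had no peak in replicate 2, E12KO or E47KO. The region 169 bp upstream of the start of Ubqln2, a ubiquitin-binding proteasome shuttle (chrX:149932210-149932785), ranked 79, with 44.1-fold enrichment. It was 576 bp wide in replicate 1, 288 bp in replicate 3 and absent from replicate 2. The region in intron 1 of Thra, the thyroid hormone receptor alpha gene (chr11:98608734-98609390), ranked 242, with 27.9-fold enrichment. It measured 651 and 551 bp in replicates 1 and 3, was absent from replicate 2, and had knockout peaks 852 and 1759 bp away. These 3 are the regions with a −log10 q of at least 100, and none of them was in the replicate 2 list.

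The next 7 by −log10 q included 4 promoter regions. The Grik5 region, at a kainate receptor subunit gene (chr7:25857475-25858438), was 27.1-fold enriched, 964 bp wide in replicate 1 and 359 bp in replicate 3, with no knockout peak within 100 kb. The Kcnk3 region, at a background potassium channel gene (chr5:30890121-30890613), was 21.4-fold enriched and measured 493 bp in replicate 1 and 375 bp in replicate 2. The Gap43 region covered the start of that growth cone protein gene (chr16:42340374-42341009), was 16.4-fold enriched and measured 513 and 550 bp in the same lists. These 2 were absent from replicate 3, the longest wt list. The Scamp5 region, at a secretory vesicle membrane protein gene, was 973 bp upstream of the start, 14.0-fold enriched, and had knockout peaks 557 and 608 bp away.

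The other 3 of these 7 lay outside promoters, were held by replicates 1 and 3, and were absent from replicate 2. The Btg2 region (chr1:135963647-135964318) lay 11489 bp downstream of the start of this antiproliferative gene, with 19.1-fold enrichment. The Prkca region was in intron 3 of the protein kinase C alpha gene, at 14.95-fold enrichment. The Mapk8 region lay 44716 bp upstream of the gene of a stress-activated kinase (JNK1), at 14.6-fold enrichment.

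Sorted by −log10 q, the 6814 peaks of wt replicate 1 were also divided into 5 classes of nearly equal size, each looked up in the other 4 lists. From the weakest to the strongest class, the share missing in E12KO was 27.4, 21.3, 16.2, 11.8 and 7.63%, and in E47KO 32.9, 26.3, 20.6, 14.5 and 9.54%. The share missing in wt replicate 2 was 55.5, 48.8, 38.8, 25.4 and 14.5%, above both knockouts in all 5 classes. The replicate 2 list was the shortest of these 4, with 12772 peaks against 24194 in replicate 3, 25229 in E12KO and 22176 in E47KO. The part of list length in the order of the shares was not tested. The share missing in wt replicate 3 fell from 29.4% in the weakest class to 7.78% in the strongest, and lay between the knockouts in 3 of the 5 classes and below both in the other two. Peaks missing in both knockouts numbered 994, of which 843 were missing in all 4 other lists and 151 had a peak in replicate 2 or 3. By class, the 151 were divided as 39, 45, 34, 20 and 13 peaks.

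**Figure D2:**
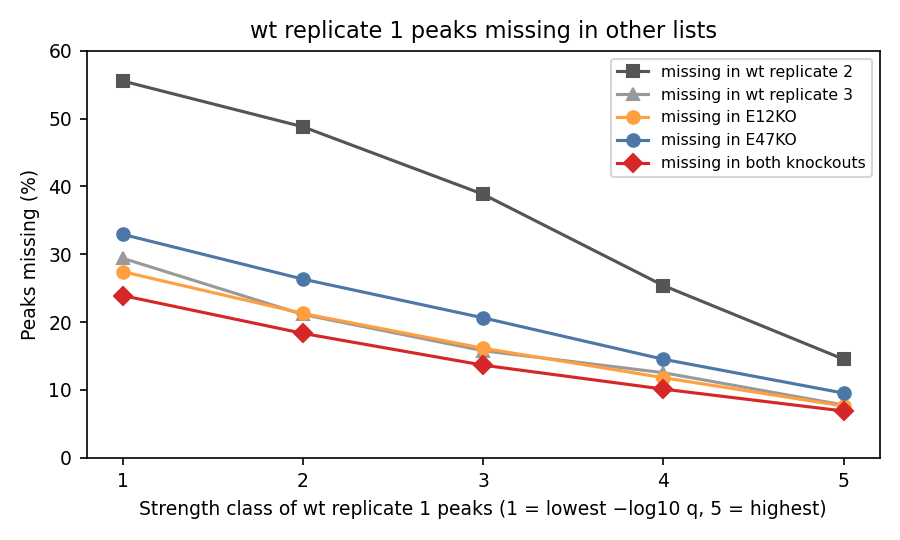
Peaks of wt replicate 1 missing in each other list and in both knockouts (vertical axis, %), by strength class (horizontal axis, 1 the lowest −log10 q and 5 the highest). Each line is 1 list or the pair of knockouts, and every line falls from the weakest to the strongest class, wt replicate 2 from 55.5 to 14.5%.

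The missing regions were narrow. Their merged width had a median of 447 bp (95% order-statistic interval 415 to 477, range 230 to 1368), against 745 bp for regions with a peak in both knockouts, 499 bp for those missing in E12KO only and 520 bp for those missing in E47KO only. Within single lists the medians were 364 bp against 457 bp for regions with a peak in both knockouts in replicate 1, 282 against 455 bp in replicate 2, and 359.5 against 715 bp in replicate 3. This difference in median width was smallest in replicate 1. For regions missing in E12KO only and E47KO only, the medians were 400.5 and 383 bp in replicate 1. They were 296.5 and 302.5 bp in replicate 2, and 429.5 and 471 bp in replicate 3. Width is tied to the choice, since a narrow region meets a knockout peak less easily. Merged width can also grow with the number of lists. The part of either was not tested.

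In the 138 missing regions held by replicates 1 and 3, the replicate 1 peak was 1.06 times as wide as the replicate 3 peak at the median (0.987 to 1.16). In 5000 regions with a peak in both knockouts the ratio was 0.599, and it was 0.873 and 0.814 in those missing in E12KO only and E47KO only. The replicate 1 peak was the wider in 80 of the 138 (58.0%, 49.6 to 65.9), against 8.42% of the 5000. This share was 39.5% of 86 regions missing in E12KO only and 27.3% of 267 missing in E47KO only. No replicate 1 peak was under 280 bp, while replicate 3 peaks of missing regions went down to 197 bp. The part that the calling of the replicate 1 list may have in these ratios was not tested.

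**Figure D3:**
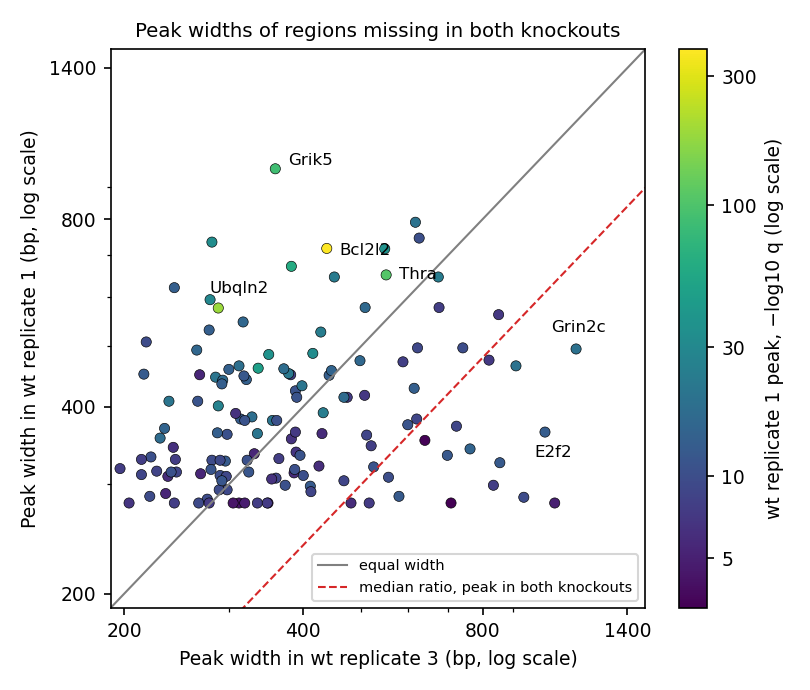
Peak width in wt replicate 1 (vertical axis, bp, log scale) against wt replicate 3 (horizontal axis, bp, log scale) for the 138 missing regions held by both, coloured by −log10 q in replicate 1. The grey line marks equal widths and the dashed line the median ratio of 0.599 in regions with a peak in both knockouts. Bcl2l2, Ubqln2, Grik5 and Thra lie above the grey line, and Grin2c and E2f2 below it.

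The widest missing region, 1368 bp, lay 132561 bp upstream of Cdh4, the R-cadherin gene, and was 1368 bp wide in replicate 1 but 347 bp in replicate 2. The next was the Ank promoter (chr15:27395784-27397129), 1346 bp in replicate 3 and 341 bp in replicate 2. After it came a region annotated to Grin2c, an NMDA receptor subunit gene, in the last intron of Tmem104, 1148 bp in replicate 3 and 495 bp in replicate 1. The others of the 10 widest were annotated to Gm15421, Ier2, Comtd1, E2f2, Grik5, Ate1 and Scai, from 1089 down to 938 bp. In all 10, the wider of the 2 peaks was more than 1.5 times as wide as the narrower.

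The missing regions were spread over all annotated features. Intergenic DNA held 80 (34.8%), later introns 59 (25.7%), promoters within 1 kb of a start 40 (17.4%, 13.0 to 22.8), first introns 30 (13.0%), UTRs 10, exons 7 and the stretch downstream of a gene 4. Of regions with a peak in both knockouts, 35.8% were intergenic and 22.0% at promoters. Of those missing in E12KO only and E47KO only, 30.4% and 29.9% were at promoters. Seen from the other side, 40 of 2757 promoter consensus regions were missing in both knockouts (1.45%, 1.07 to 1.97), an interval that holds the 1.87% over all regions. The share was 1.57% for exons, 1.82% for intergenic DNA, 1.92% for first introns, 2.14% for later introns, 2.88% for the stretch downstream of a gene and 3.79% (2.07 to 6.83) for UTRs. A peak over the start itself was found in 23 missing regions (10.0%, 6.76 to 14.6), against 17.4% of regions with a peak in both knockouts and 21.2% and 21.4% of those missing in 1. Cover was judged from the replicate 3 peak, or else the replicate 2 peak, and a narrower peak covers a given base less often. The median replicate 3 width was 359.5 bp in missing regions, against 715, 429.5 and 471 bp in the same order. The part of width in these shares was not tested.

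**Figure D4:**
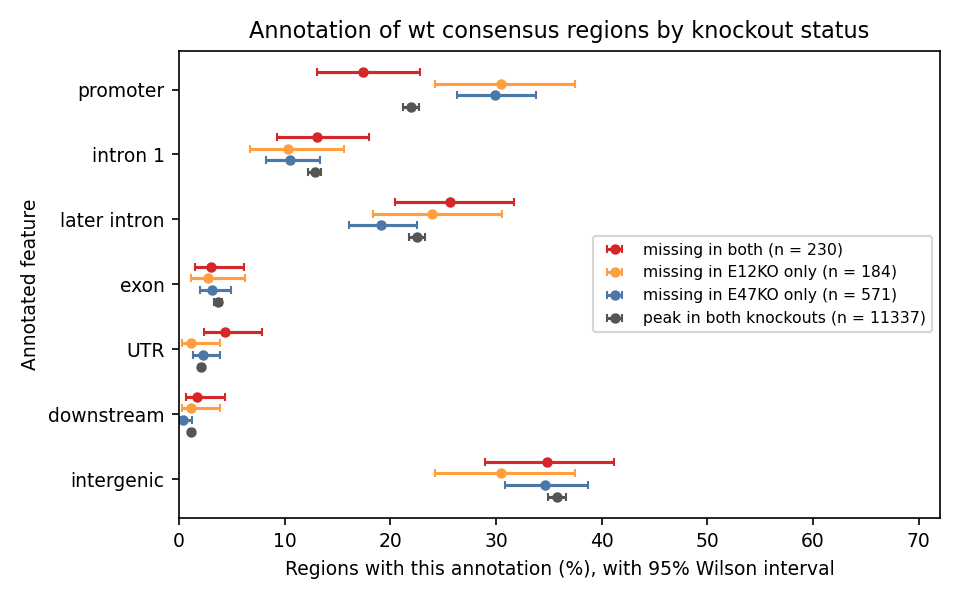
Share of regions with each annotation (horizontal axis, %, with 95% Wilson intervals) for each annotated feature (vertical axis), in the 230 regions missing in both knockouts, those missing in 1 knockout and those with a peak in both. Promoters made up 17.4% of the regions missing in both and 29.9 to 30.4% of those missing in 1.

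The 15 widest promoter regions lay at genes of several roles. Besides Ank, Grik5, Scai, Actr3 and Cdk8, they included Comtd1 (a methyltransferase-like gene), Ate1 (the arginyltransferase of the N-degron pathway), Limk1 (a kinase of the actin regulator cofilin) and Rabgap1l (a Rab GTPase-activating protein). The others were Fancc (Fanconi anaemia DNA repair), Pik3r2 (a regulatory subunit of PI 3-kinase), Crtac1, Bend5, Stard4 (sterol transport) and Ppp1r12b (a myosin phosphatase subunit). Merged widths ran from 1346 bp at Ank to 723 bp at Ppp1r12b. The Limk1 peaks were of like width in their lists, 545 bp in replicate 1 and 548 bp in replicate 2. They overlapped only in part, as the merged region was 838 bp wide. The Actr3 peaks measured 791 bp in replicate 1 and 617 bp in replicate 3, and the Cdk8 peaks 334 and 698 bp.

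Most missing regions lay more than 10 kb from the nearest peak that a knockout did have. The median gap was 17381.5 bp to E12KO (range 53 to 681677) and 19903 bp to E47KO (range 153 to 681453). To the nearer of these it was 15924 bp (95% order-statistic interval 12345 to 19231). A knockout peak lay within 500 bp of 7 regions, within 1 kb of 19, within 10 kb of 87 (37.8%) and within 100 kb of 211 (91.7%). Gaps were similar for regions missing in 1 knockout. The median gap to E12KO was 19125.5 bp in those missing in E12KO only, and to E47KO 20709 bp in those missing in E47KO only. An E12KO peak lay within 10 kb of 36.1% of the 230 and 37.0% of those missing in E12KO only. For E47KO peaks the shares were 31.3% and, in those missing in E47KO only, 34.5%. In 157 of the 230 (68.3%, 62.0 to 73.9) the nearest E12KO and E47KO peaks overlapped each other, so that both knockouts shared a neighbour. That neighbour was held by at least 2 wt lists in 87 cases, by 1 wt list in 55 and by none in 15.

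**Figure D5:**
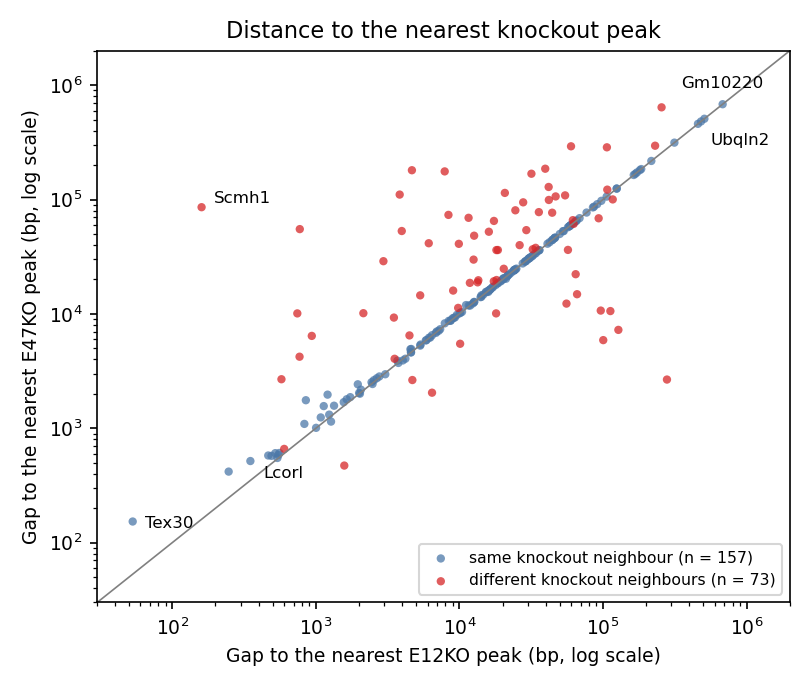
Gap from each of the 230 regions to the nearest E47KO peak (vertical axis, bp, log scale) and to the nearest E12KO peak (horizontal axis, bp, log scale). Blue points, 157 regions, have knockout neighbours that overlap each other and lie along the diagonal, and red points, 73 regions, have different neighbours.

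The regions nearest the limit of the choice were the following. Just inside it, the promoter region of Tex30 (chr1:44159419-44159751) was 53 bp from an E12KO peak and 153 bp from an E47KO peak. Regions near Scmh1, a Polycomb group gene, and in Map4k4, a kinase gene, had an E12KO peak at 160 and 247 bp, and those at Lcorl and in Btbd11 at 350 and 466 bp. Just outside it, knockout peaks overlapped the regions near Tmx3 by 25 bp, Eef1d by 57 bp and Mid1 by 94 bp. E12KO alone overlapped the regions at Pde4b by 71 bp and Sema4g by 82 bp.

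At the other end, the region annotated to Gm10220 was 681677 bp from an E12KO peak and 681453 bp from an E47KO peak. The region 205297 bp upstream of Isl1, a LIM homeodomain factor of motor neurons, had gaps of 508648 and 508758 bp, and that in Dpy19l1, a mannosyltransferase gene, 482018 and 481831 bp. At Ubqln2 the gaps were 458866 and 459208 bp, and at Spag16, a sperm axoneme gene, 314488 and 314446 bp.

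Most of the genes had other E2A peaks annotated to them in the knockouts. The same counts were not made for other genes with a consensus region, so nothing here is shown to be particular to these genes. The missing regions were annotated to 224 named genes, of which 180 had another peak in E12KO, 165 in E47KO and 163 in both. At least 1 consensus region with a peak in both knockouts was annotated to 140 of them. Gap43 is an example, with 12 annotated peaks in E12KO and 14 in E47KO. No peak in either knockout was annotated to 42 genes, among them Bcl2l2, Ubqln2, Grik5, Scai, Comtd1, Isl1, Sycp2 and Dpy19l1. This count rests on gene labels, and a nearby knockout peak can carry the name of another gene. The Bcl2l2 region had an E47KO peak 5482 bp away, labelled Ppp1r3e, and an E12KO peak 10117 bp away, labelled Pabpn1. For Comtd1 the gaps were 23980 bp (E12KO) and 23928 bp (E47KO), to peaks labelled Vdac2. The regions of the other genes named here had no knockout peak within 100 kb. In the wild type, Bcl2l2 and Scai each had 1 peak in replicate 1, none in replicate 2 and 1 in replicate 3, so that the missing region was their only consensus region.

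No gene had more than 2 missing regions, and 4 genes had 2. These were Chrm3, a muscarinic acetylcholine receptor gene, Med13l, Rhcg, an ammonium transporter gene, and Stox2. Both regions of Chrm3 and both of Stox2 were held by replicates 2 and 3, and both of Rhcg by replicates 1 and 3. No missing region lay within 10 kb of another.

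Genes of the E2A pathway and of neural development were looked up in 15 lists of 317 genes. Consensus regions annotated to 201 of these genes numbered 728, and 15 were missing in both knockouts (2.06%, 1.25 to 3.37), close to the 1.87% over all consensus regions. Among the E proteins and Id factors, 1 of 45 regions was missing, in intron 5 of Tcf12, which encodes the E protein HEB. It was absent from replicate 1, 394 bp wide in replicate 2 and 569 bp in replicate 3, with knockout peaks 15888 and 15566 bp away, and Tcf12 had 12 other peaks in E12KO and 11 in E47KO. None of 8 regions at proneural bHLH genes was missing, nor any of 31 at Sonic hedgehog, 56 at FGF and EGF signalling and 103 at projection neuron genes.

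Signalling genes gave 4 missing regions. The Mfng region covered the start of this Notch-modifying glycosyltransferase gene (chr15:78603729-78604275) and was 1 of 64 regions at Notch pathway genes. It was 547 bp wide in replicate 1 and 317 bp in replicate 3, 8.73-fold enriched, and about equally far from E12KO (2002 bp) and E47KO (2036 bp) peaks. Of 49 regions at BMP and TGF-β pathway genes, 2 were missing, in intron 1 of the receptor gene Bmpr1b and 66534 bp downstream of the start of Smad5, a BMP signal transducer. The Smad5 region was 12.8-fold enriched and measured 594 bp in replicate 1 and 279 bp in replicate 3. Of 63 regions at Wnt pathway genes, 1 was missing, 63682 bp upstream of the β-catenin gene Ctnnb1, with knockout peaks 2028 and 2006 bp away.

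Axon guidance genes gave 4 of 97 (4.12%, 1.62 to 10.1), an interval that held the 1.87% of all regions. They were regions in introns of the semaphorin genes Sema3a and Sema6d and the semaphorin receptor gene Plxna4, and 69732 bp upstream of the ephrin receptor gene Ephb1. The first 3 were held by replicates 2 and 3 and Ephb1 by replicates 1 and 3. Cell cycle genes gave Btg2, 1 of 33 regions at CDK inhibitor and exit genes, and E2f2, an activator of S-phase genes, 1 of 34 at cell cycle drivers. The E2f2 region was in intron 1, 364 bp wide in replicate 1 and 1018 bp in replicate 3.

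Among cell type markers, 2 of 92 regions at neural stem cell genes were missing. They were annotated to Hmga2, a chromatin protein of fetal stem cells, at 104697 bp upstream, and to Sox3, a progenitor factor, at 149798 bp downstream. Of 23 regions at oligodendrocyte lineage genes 1 was missing, 174659 bp downstream of the start of Pdgfra, and 1 of 61 at astrocyte genes, 84360 bp upstream of Nfib. All 4 were held by replicates 2 and 3 only. Of 6 regions at endothelial, mural, fibroblast and microglia markers, none was missing. Peak lists give no expression, so the labelled cell type could not be checked from the levels of its markers.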

How the data were processed

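E2A ChIP-seq peaks of 3 wt, 1 E12KO and 1 E47KO library were analysed, and the input library was not used. The submitters' processing notes name MACS2 2.1.0, BWA 0.7.13, Picard 1.119 and the mm9 build, without settings. The deposited lists were called per library and give position, annotation and nearest gene, per the file headers. The wt replicate 1 table also holds the authors' −log10 p and −log10 q, fold enrichment (a ratio) and pileup signal, used only within that list. Different calling thresholds would change which regions count as missing, and with no read totals the depth is unknown.

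Peaks were merged and overlapped in Python 3.11.15 with pandas 2.3.3, checked on simulated data. Each region took its annotation from its wt replicate 3 peak, or else from its replicate 2 peak. Distances to a gene start were recomputed from the nearer edge of that 1 peak, not of the merged region. A start reached only by another peak of the region was therefore not counted as covered. A start can be off by 1 bp, because the lists do not state how positions are counted. Named are regions in all 3 wt lists, the 10 highest by −log10 q, the 10 widest, the 15 widest promoters, the 5 nearest and 5 farthest from a knockout peak, the 5 with the smallest overlap, members of the gene lists and genes with 2 regions. Of 226 gene identifiers, 224 were in the RefSeq table. The regions, gene lists and measures were chosen with earlier results of these data known. No test was made, since each knockout has 1 library and the choice used the lists themselves.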

Additional observations from a re-analysis of the deposited data

How the results depend on the processing

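Alternatives changed the overlap that counts as a knockout peak, the merging, the wt lists, the score limit, the shortest peaks and the file type, one at a time. The number of missing regions was 223 to 295 instead of 230 under the 6 that kept the requirement of at least 2 of 3 wt lists, and 7 when all 3 were required. Leaving out 1 wt replicate gave 17 to 138 regions: 89 without replicate 1, 138 without replicate 2 and 17 without replicate 3. The share of consensus regions was 2.39% when a knockout peak had to cover 50% of the region, 0.166% in all 3 lists, and 0.399 to 2.51% leaving out a replicate. Promoters made up 14.5 to 23.5% leaving out a replicate. The median width was 494 bp with 50% cover, 547 bp in all 3 lists, 375 bp from the BED lists, where replicate 1 gives summits of 1 bp, and 413 to 493 bp leaving out a replicate. The median gap to a knockout peak was 9148 bp with 50% cover, 10037 bp in all 3 lists, and 11828 to 15566 bp leaving out a replicate. The share held by all 3 lists was 2.69 to 5.76% under the 6, and has no value under the alternatives that fix the lists. Requiring all 3 lists changes how many lists must hold a region, and leaving out a replicate changes which lists can hold it. The regions added by the 50% cover rule all overlap a knockout peak in part. They enter with no gap, so that rule itself lowers the median gap. The cause of the other shifts was not tested. Read depth, which is unknown, limits whether a missing peak can be called absent. No paired analysis was possible because each knockout has 1 library.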
